A study of Mus musculus with 4 samples.

Results

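Venous and venular endothelial cells line the vessels that collect blood from capillaries. In skeletal muscle, as elsewhere, postcapillary venules are the site where leukocytes roll on selectins, stop on adhesion molecules and leave the blood, and where permeability opens in inflammation. Their cells are recognised by P-selectin and von Willebrand factor, both stored in Weibel-Palade bodies, by the chemokine-binding receptor Ackr1, and by the transcription factor Nr2f2 (COUP-TFII), which holds venous identity against Notch signalling. Capillary cells of muscle, by contrast, carry the lipoprotein lipase anchor Gpihbp1 and genes of fatty acid uptake.

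The cells described here were taken from single-cell RNA-seq of mononuclear cells of 4 muscle samples, each 1 library: quadriceps and diaphragm of WT mice, and the same muscles of mdx5cv mice, all at an age of 14 weeks. The mdx5cv allele is a point mutation of the dystrophin gene and a model of Duchenne muscular dystrophy. All cells had been frozen and thawed before capture in droplets with 10x Genomics 3' chemistry, in which each captured transcript is counted once as a unique molecular identifier (UMI). The number of animals behind a library is not given in the labels.

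A barcode was a member when it held at least 1000 UMIs, at least 500 genes and at most 15% mitochondrial UMIs, at least 2 UMIs of the endothelial genes Pecam1, Cdh5 and Egfl7 together, at least 2 of Selp, Ackr1 and Vwf together, at most 1 of Ptprc, Csf1r, Pdgfra and Rgs5, at most 1 of the arterial genes Sema3g, Gja5 and Stmn2, and none of the lymphatic gene Prox1. This left 199 venous-gated cells of 28163 cells in all, with 136 from WT quadriceps, 4 from WT diaphragm, 35 from quadriceps of mdx5cv and 24 from its diaphragm. The comparison classes were 1940 capillary-gated cells (at least 3 UMIs of Gpihbp1, Timp4 and Car4) and 445 arterial-gated cells. Since the rule reads Selp, Ackr1 and Vwf, their levels describe the choice and support nothing further. With 1 library per group there was no replicate check and no test. UMIs were summed per class and library, scaled to a common total (CPM), and each CPM ratio was given a 95% interval that covers counting error only. A gene was called when its ratio was at least 1.5-fold, its interval excluded 1, and the higher class held at least 10 UMIs and 20 CPM.

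Library totals ran from 18837891 to 62780685 UMIs, and between 5 and 20 barcodes were shared by any pair of libraries. Venous-gated cells were deeper than capillary-gated cells in every library: the medians were 2474 against 1594 UMIs in WT quadriceps, 4542 against 1892 in WT diaphragm, 3229 against 2193 in mdx5cv quadriceps and 3071 against 2320.5 in mdx5cv diaphragm. A gate on UMI counts admits deep cells more easily, and how much of the depth difference comes from the gate was not tested. A few members held many UMIs of fibroblast, macrophage or lymphocyte genes. These mixed cells, with over 10 UMIs of 37 such marker genes, numbered 4 in WT quadriceps, 1 in WT diaphragm, 0 in mdx5cv quadriceps and 2 in mdx5cv diaphragm. They carried 933 of the 1050 such UMIs of WT quadriceps members and 994 of the 1000 in WT diaphragm, so results that rest on them are given without them too, a choice made after seeing the data. Scrublet called 0 members doublets, but it called 0 barcodes at all in 3 libraries and so did not work there.

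Venous-gated cells were 5.87% of endothelial-gated cells in WT quadriceps (136 of 2315, exact interval 4.95 to 6.91), 4.55% in WT diaphragm (4 of 88, 1.25 to 11.2), 8.68% in mdx5cv quadriceps (35 of 403, 6.12 to 11.9) and 6.30% in mdx5cv diaphragm (24 of 381, 4.08 to 9.23). The intervals of WT and mdx5cv quadriceps overlapped. Thinning each cell to 1000 UMIs lowered the shares to 3.19%, 2.78%, 4.05% and 1.47% in the same order, so the share depends on depth. Per 100 capillary-gated cells there were 8.94, 17.4, 16.2 and 13.3 members, and of all cells 2.77%, 0.0532%, 0.420% and 0.324%. The 4 members of WT diaphragm are too few for gene ratios and are given as values only.

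The members were not uniform. Vwf was detected in 194 of the 199, Ackr1 in 58, Selp in 52 and all of them together in 28, so that 117 members had been admitted by Vwf alone. Their number was 81 of 136 in WT quadriceps, 13 of 35 in mdx5cv quadriceps and 21 of 24 in mdx5cv diaphragm. At the edge of the rule, 85 members had exactly 2 UMIs of the gate genes, 34 had 3 and 80 had 4 or more, while 275 cells that met every other criterion had 1 and stayed outside. In 75 members the capillary genes Gpihbp1, Timp4 and Car4 also reached 3 UMIs.

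Genes that the rule did not read followed the gate sum in WT quadriceps. Lrg1, a secreted glycoprotein of venules that acts on TGF-beta signalling, stood in WT quadriceps at 12.4 CPM in cells that met every other criterion but had no gate UMI, 19.0 with 1, 192 with 2, 470 with 3 and 738 with 4 or more. Plvap, which builds the diaphragms of fenestrae and caveolae in venular walls, went from 45.1 and 61.8 CPM to 363, 1127 and 1723 over the same steps. The capillary gene Rgcc, a cell cycle regulator, ran the other way, from 907 and 714 to 548, 225 and 28.2 CPM. Cells just inside the rule, with 2 gate UMIs, thus lay between these ends in WT quadriceps. In mdx5cv quadriceps Lrg1 was already at 199 CPM in the 30 cells with 1 gate UMI, against 43.0 with none and 247 with 2. In mdx5cv diaphragm Lrg1 sat in few cells: 58 of the 64 Lrg1 UMIs came from the 4 members with a gate sum of 4 or more, whose Lrg1 level was 2597 CPM against 0 CPM at a sum of 3. Nr2f2 did not follow it there, at 181 CPM in the 16 members with a sum of 2 and 179 CPM in those 4.

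**Figure D1:**
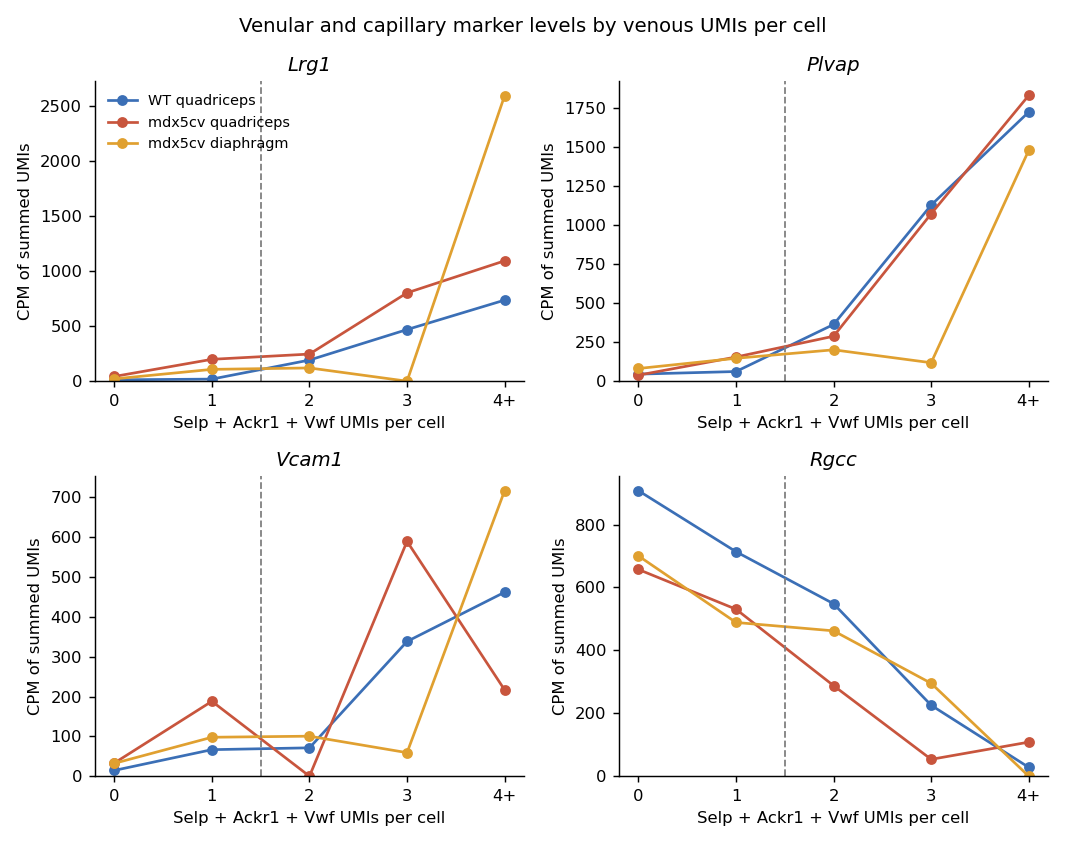
Level of Lrg1, Plvap, Vcam1 and Rgcc (CPM of summed UMIs, linear axes) by the number of Selp, Ackr1 and Vwf UMIs per cell, with 1 line per library and the dashed line at the rule's threshold; WT diaphragm is left out for its 4 members. Lrg1 reached 738 CPM in WT quadriceps, 1095 in mdx5cv quadriceps and 2597 in mdx5cv diaphragm at 4 or more UMIs, while Rgcc was at 28.2, 108 and 0 CPM.

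In WT quadriceps the 55 members with a Selp or Ackr1 UMI could be set against the 81 with Vwf alone, whose median depths were 3151 and 2070 UMIs. Of 3766 testable genes, 339 (9.00%) were called higher and 385 (10.2%) lower in the first set, and 260 (7.36%) and 352 (9.97%) of 3531 without mixed cells. Both sets expressed Vwf, but the venular genes were concentrated in the first: Lrg1 stood at 734 against 238 CPM (ratio 3.09, 2.18 to 4.45), Plvap at 1558 against 664 (2.35, 1.89 to 2.92), Vcam1 at 409 against 177 (2.31, 1.51 to 3.60) and Icam1 at 299 against 94.1 (3.18, 1.82 to 5.83). Of the venous and venular list, 7 of 12 testable genes were called higher and 0 lower. Nr2f2 was level at 157 and 149 CPM (1.05, 0.605 to 1.84). In mdx5cv quadriceps it was called higher in the Selp or Ackr1 members, at 270 against 80.6 CPM (3.35, 1.02 to 17.4). The counts there were 24 and 3 UMIs. In mdx5cv diaphragm it stood at 98.7 against 160 CPM and was not called.

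The Vwf-only members carried capillary transcripts and held more of some arterial genes than the Selp or Ackr1 members. Of the capillary list, 8 of 12 testable genes were called lower in the Selp or Ackr1 members, with Rgcc at 36.7 against 481 CPM (13.1-fold lower, 6.10 to 33.6) and the lipid receptor Cd36 2.52-fold lower. The gate genes of the capillary class were at 1068 (Gpihbp1) and 1273 CPM (Timp4) in the Vwf-only members, against 1836 and 2287 CPM in capillary-gated cells. Notch genes went the same way: 5 of 9 were called lower in Selp or Ackr1 members, among them the ligand Dll4 (10.5 against 88.5 CPM) and the target Hey1 (10.5 against 127 CPM), and so was Sox17, an arterial transcription factor (110 against 221 CPM). Of the arterial list as a whole, 5 of 11 were lower and 1 higher, Clu at 194 against 66.4 CPM. The arterial list summed to 1537 CPM in Selp or Ackr1 members, 2446 CPM in Vwf-only members and 2608 CPM in capillary-gated cells. Sox17 was at 260 CPM in cells with no gate UMI, so these levels did not set the Vwf-only members above capillary cells. The tight junction gene Cldn5 stood at 15.7 against 194 CPM (12.3-fold lower, 3.88 to 62.5). By these markers the Selp or Ackr1 members were the more venular set, and the Vwf-only members held capillary transcripts beside Vwf. The Vwf-only members still stood above WT quadriceps cells with no gate UMI in venular genes. Lrg1 was at 238 against 12.4 CPM, Plvap at 664 against 45.1 CPM and Nr2f2 at 149 against 33.8 CPM. The same did not hold for Plvap in the 13 Vwf-only members of mdx5cv quadriceps, at 26.9 against 38.7 CPM. Lrg1 was there at 80.6 against 43.0 CPM and Nr2f2 at 80.6 against 57.4 CPM. In mdx5cv diaphragm the values were 131 against 21.0, 204 against 81.2 and 160 against 29.4 CPM for Lrg1, Plvap and Nr2f2.

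Other genes that were higher in the Selp or Ackr1 members included Tagln, an actin-binding protein best known from smooth muscle, at 1453 against 244 CPM (5.97, 4.33 to 8.40), the transcription factors Fos at 755 against 194 CPM and Cited2 at 220 against 27.7 CPM, and Ier3, an early-response gene, at 498 against 111 CPM. Tagln gave 321 of the 358 UMIs of the pericyte and smooth muscle list in WT quadriceps members, while Myh11, Cnn1, Abcc9, Cspg4 and Higd1b were at 0 there. Acta2, the other testable gene of that list, went the opposite way and was 8.44-fold lower in the Selp or Ackr1 members (2.56 to 43.8). The higher level of Tagln was also seen in mdx5cv quadriceps (810 CPM in Selp or Ackr1 members, 0 in Vwf-only members). The coagulation list had 7 of 10 testable genes higher and 0 lower, among them Procr, the endothelial receptor of protein C (4.27, 1.73 to 12.6), and Cd9 (1.71, 1.45 to 2.01). Without mixed cells 6 of 9 were higher, and Thbd was no longer called. Fibroblast genes such as Dcn (1401 against 88.5 CPM) and Igfbp5 (1500 against 33.2 CPM) were called higher only with the 4 mixed cells of this library, all of which were Selp or Ackr1 members. Without them Dcn was at 48.1 against 88.5 CPM and Igfbp5 at 24.1 against 33.2 CPM, neither called.

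Set against capillary-gated cells of the same library, the members showed a venular programme that recurred in WT quadriceps, mdx5cv quadriceps and mdx5cv diaphragm. Both classes were chosen by gates on the same cells, so this contrast is a description. Of 3416 genes testable in all 3 libraries, 42 (1.23%) were called higher in the members in each of them and 53 (1.55%) lower, 2.78% in either direction. Without mixed cells the counts were 35 (1.08%) and 47 (1.45%) of 3238, 2.53% together, and over the quadriceps libraries alone 177 and 163. Against arterial-gated cells, in WT quadriceps, 480 (7.52%) of 6386 genes were called higher and 540 (8.46%) lower, and Lrg1 stood there at 493 against 47.2 CPM.

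Of the venous and venular list, 5 of 10 testable genes were higher in all 3 libraries and 0 lower: Lrg1, Nr2f2, Vcam1, Il1r1 and Plvap. Lrg1 (chr17:56119678-56122001, minus strand, mm10) was at 493 CPM in WT quadriceps members, 73.7 in WT diaphragm, 888 in mdx5cv quadriceps and 719 in mdx5cv diaphragm, against 4.68, 0, 25.9 and 21.8 CPM in capillary-gated cells. Its ratios were 105 (60.1 to 202), 34.2 (19.9 to 63.2) and 32.9 (17.6 to 67.0) in the libraries with enough members. The last of these rested on few cells. In mdx5cv diaphragm 58 Lrg1 UMIs came from the 4 members with a gate sum of 4 or more, and 6 from the 16 with 2. A Lrg1 UMI was present in 67 of 136 WT quadriceps members (49.3%) and in 8 of 1521 capillary-gated cells (0.526%), or 32.4% and 0.329% after thinning to 1000 UMIs.

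Plvap stood at 1123, 258, 1420 and 505 CPM in the members, in the same order of libraries, against 12.2, 0, 27.7 and 41.9 CPM in capillary-gated cells, a ratio of 91.8 (64.6 to 134), 51.3 (30.7 to 91.7) and 12.1 (7.15 to 20.9). The mdx5cv diaphragm ratio lay below both quadriceps intervals. Vcam1, the ligand of the integrin VLA-4 on arriving leukocytes, was at 296, 0, 230 and 247 CPM, with ratios of 18.3 (12.8 to 26.5), 5.78 (3.23 to 10.5) and 7.14 (3.69 to 14.0). In mdx5cv diaphragm most UMIs of both genes sat in the 4 members with a gate sum of 4 or more. These held 33 Plvap and 16 Vcam1 UMIs, against 2 and 1 in the 4 members with 3, and 10 and 5 in the 16 with 2. Nr2f2 was at 154, 0, 214 and 146 CPM, with ratios of 5.02, 3.64 and 6.68. Il1r1, the interleukin-1 receptor, was at 102, 147, 167 and 135 CPM, with ratios of 2.81, 2.92 and 5.69. The prostaglandin transporter Slco2a1 was called in both quadriceps libraries (87.3 and 30.9-fold) and missed the call in mdx5cv diaphragm with 7 UMIs. Ephb4, a classical vein marker, was not called in any of them: 132 against 104 CPM in WT quadriceps (1.27, 0.917 to 1.72), with 0.781 and 1.32 in the mdx5cv libraries.

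Of the genes of leukocyte adhesion and transmigration, Vcam1 alone was called in all 3 libraries, 1 of 9 testable. Icam1, the ligand of leukocyte beta-2 integrins, was 7.48-fold higher in WT quadriceps members (5.35 to 10.5) and 2.92-fold in mdx5cv quadriceps (1.60 to 5.20), and at 1.49 (0.767 to 2.70) it was not called in mdx5cv diaphragm. E-selectin (Sele), which vessels make on activation, gave 9 UMIs in WT quadriceps members and 7 in mdx5cv quadriceps members and none in capillary-gated cells of any library.

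Of cytokine receptor and signalling genes, 3 of 11 testable were higher and 0 lower in all 3 libraries: Il1r1, the shared signalling receptor of the interleukin-6 family Il6st, and Socs3, the feedback inhibitor of that signalling. Il6st was at 808, 442, 864 and 404 CPM in the members against 116, 18.8, 133 and 94.6 CPM in capillary-gated cells, with ratios of 6.97 (5.94 to 8.18), 6.49 (4.80 to 8.81) and 4.27 (2.71 to 6.66). Socs3 had ratios of 1.87, 2.81 and 2.83, and its mdx5cv diaphragm call was lost without mixed cells. Csf2rb, the shared signalling chain of the receptors for GM-CSF, interleukin-3 and interleukin-5, was outside that list and was at 80.8, 0, 531 and 348 CPM against 2.88, 0, 131 and 25.5 CPM (28.1, 4.04 and 13.7-fold). The leukotriene receptor Cysltr1 was at 116, 0, 412 and 326 CPM, or 20.1, 6.62 and 4.84-fold.

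Among vasoactive genes, 3 of 8 testable were higher and 1 lower in all 3 libraries. Ptgs1, the constitutive cyclooxygenase, was at 385, 36.8, 246 and 180 CPM (6.26, 3.95 and 12.3-fold). Calcrl, the receptor of CGRP and adrenomedullin, was 3.49, 2.07 and 2.62-fold higher, the last of these lost without mixed cells. The vasoconstrictor Edn1 was 2.69, 7.64 and 3.50-fold higher than in capillary-gated cells, but its level of 97.0, 0, 119 and 191 CPM lay below that of arterial-gated cells (287, 783, 231 and 640 CPM). Its receptor Ednrb was the lower gene, with 6, 0, 0 and 1 UMIs in the members against 74.1, 75.1, 111 and 69.2 CPM in capillary-gated cells. The mdx5cv diaphragm call of Ednrb was lost without mixed cells.

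Other genes with high recurring ratios were Rasa4, a Ras GTPase-activating protein (477, 184, 579 and 663 CPM, against 30.2, 18.8, 93.4 and 106 CPM), Ehd4, an endocytic recycling ATPase (803, 111, 983 and 202 CPM, 20.8, 12.6 and 5.55-fold), the LIM homeobox factor Lhx6 (6.59, 2.91 and 5.14-fold) and the riboflavin kinase Rfk (102, 79.3 and 124 CPM against 25.5, 15.6 and 25.5 CPM in WT quadriceps, mdx5cv quadriceps and mdx5cv diaphragm, the last call lost without mixed cells). Elastin (Eln) was at 628, 479, 841 and 281 CPM, 15.3, 13.9 and 2.80-fold above capillary-gated cells. Clusterin (Clu), a secreted chaperone, was 30.6, 12.8 and 4.63-fold higher than in capillary-gated cells. These were not restricted to the venous gate: arterial-gated cells held Clu at 161, 228, 555 and 767 CPM and Eln at 176, 65.2, 284 and 452 CPM.

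**Figure D2:**
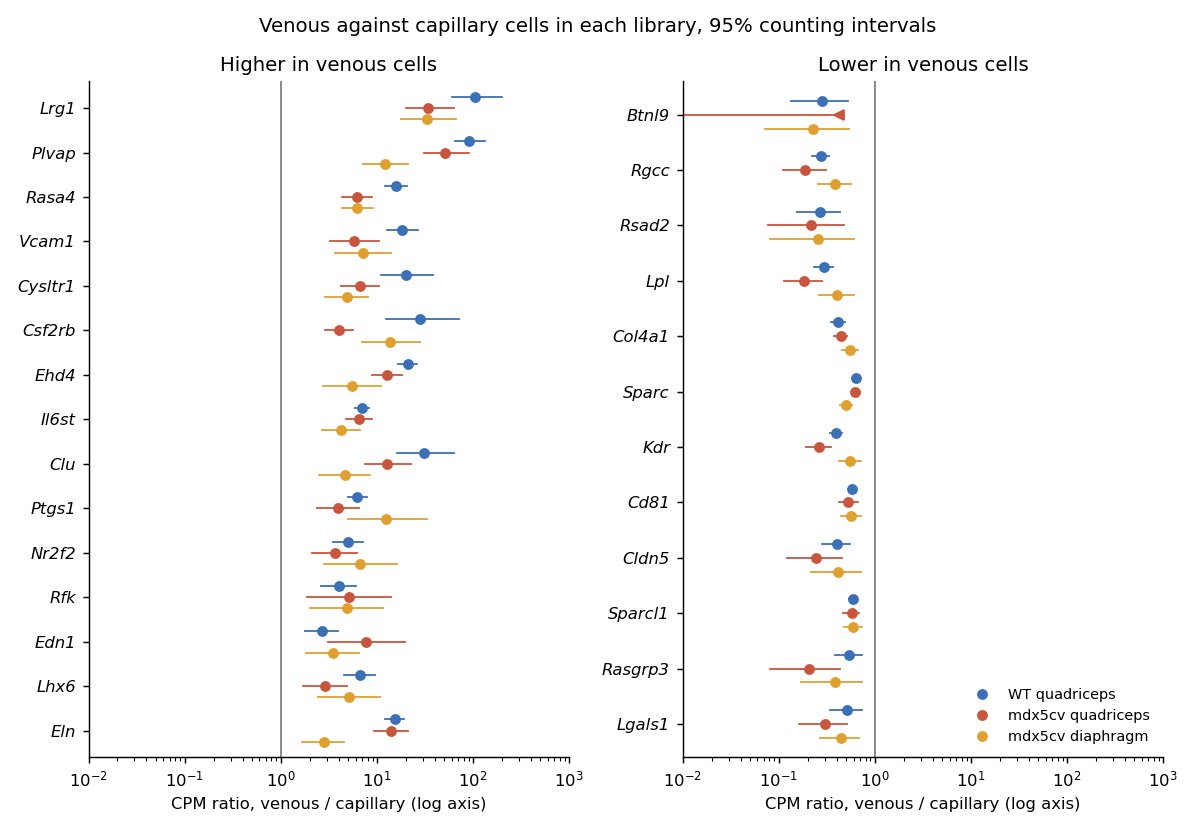
CPM ratio of venous-gated to capillary-gated cells (log axis) with 95% counting intervals in 3 libraries, for the 15 genes higher and 12 lower in venous-gated cells that ranked first by their weakest interval; arrowheads mark the bound where the members were at 0 UMIs. Lrg1 and Plvap stand farthest right in WT quadriceps, at 105 and 91.8, and every interval lies on its side of 1.

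Among the 53 genes lower in the members were some of capillary identity, VEGF response and basement membrane. From the capillary list Rgcc, Btnl9 and Kdr were lower in all 3 libraries, 3 of 12 testable. Rgcc was at 253, 73.7, 135 and 314 CPM in the members against 925, 657, 711 and 808 CPM (3.66, 5.27 and 2.57-fold lower). The VEGF receptor Kdr was at 552, 295, 404 and 741 CPM against 1413, 1108, 1548 and 1334 CPM (2.56, 3.83 and 1.80-fold lower), and the tip cell genes Pdgfb (2.17, 2.10 and 2.01-fold) and Plxnd1 (1.75, 2.55 and 2.20-fold) completed the 3 of 14 called from the angiogenesis list. The butyrophilin-like gene Btnl9 gave 10, 0, 0 and 5 UMIs in the members against 95.4, 37.6, 72.6 and 249 CPM in capillary-gated cells.

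Fatty acid genes did not move as one group. Lpl, the lipase that Gpihbp1 anchors, was 3.41, 5.43 and 2.45-fold lower in the members, the 1 call of 11 testable lipid genes. Fabp4, the most abundant lipid chaperone, was near the capillary level at 40047, 14776, 24427 and 25941 CPM against 39032, 23929, 27575 and 29876 CPM. Cd36 stood at 1934, 1069, 2030 and 1920 CPM against 2766, 1878, 2822 and 1997 CPM and was not called in any of the 3 libraries.

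Of 20 testable matrix genes, 4 were lower in all 3 libraries (Col4a1, Hspg2, Sparc and Sparcl1) and 1 higher (Eln). Col4a1, a chain of basement membrane collagen IV, was at 377, 258, 1443 and 1370 CPM in the members and 913, 939, 3260 and 2463 CPM in capillary-gated cells, 2.42, 2.26 and 1.80-fold lower. The Hspg2 call in mdx5cv diaphragm was lost without mixed cells. Of interferon-response genes 2 of 18 were lower, Rsad2 (3.70, 4.65 and 3.92-fold) and Isg15 (1.66, 2.38 and 2.56-fold). Cldn5 was 2.50, 4.06 and 2.42-fold lower, and the tetraspanin Cd81 1.73, 1.88 and 1.77-fold.

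Coagulation genes stood higher in the members than in capillary-gated cells in WT quadriceps, the library with the most members. There 10 of 12 testable genes were higher and 0 lower, against 8.80% and 9.30% of all 6409 genes, and 7 of 10 were higher without mixed cells. They included thrombomodulin (Thbd), which turns thrombin toward protein C, at 436 against 234 CPM (1.87, 1.56 to 2.22), Procr at 88.9 against 20.5 CPM (4.33, 2.73 to 6.77), the ATP-degrading enzyme Entpd1 at 232 against 65.9 CPM (3.52, 2.69 to 4.57) and Thbs1, a thrombospondin, at 56.6 against 11.5 CPM (4.91, 2.69 to 8.78). In mdx5cv quadriceps 5 of 10 were higher and 0 lower (5.68% and 7.38% of all 5268 genes) and in mdx5cv diaphragm 1 of 8 and 0 (3.02% and 3.65% of 4570, 6.67% together). Whether the libraries differ in this was not tested. Thbd was at 230 against 334 CPM in mdx5cv quadriceps (1.45-fold lower, 0.979 to 2.22) and was not called there. Cd9 alone was called in all 3 libraries, 1.73, 1.52 and 1.73-fold higher, and its mdx5cv quadriceps ratio was just under the threshold without mixed cells.

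Immediate-early genes are known to respond to tissue dissociation as well as to signals in the vessel. Fos was higher in the members in all 3 libraries (482 against 243, 531 against 86.5 and 517 against 289 CPM), the 1 call of 18 testable genes of that list. The part of cell handling in it was not tested. The cell cycle inhibitor Cdkn1c was lower (1.82, 2.43 and 3.94-fold) and the growth arrest gene Gadd45g higher (3.04, 2.47 and 2.37-fold).

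Between genotypes, venous-gated cells of mdx5cv quadriceps held more transcripts of the basement membrane collagens Col4a1, Col4a2, Col15a1 and Col18a1 and of the signalling genes Il4ra, Stat3, Socs3, Bcl3 and Tnfrsf1a than those of WT quadriceps, and fewer of 9 of 19 heat shock and early-response genes. Of 4337 testable genes, 340 (7.84%) were called higher and 280 (6.46%) lower in mdx5cv. The split depends on the scaling: with median-ratio factors in place of totals, which moved all log2 ratios by 0.20, it was 203 and 435. Without mixed cells it was 329 (7.99%) and 250 (6.07%) of 4120. Among capillary-gated cells 1151 (16.5%) and 525 (7.53%) of 6974 were called. The members also differed in make-up: 22 of 35 in mdx5cv quadriceps had a Selp or Ackr1 UMI, against 55 of 136 in WT. Over those members alone the counts were 263 and 236, and how much of each ratio follows this make-up was not tested.

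**Figure D3:**
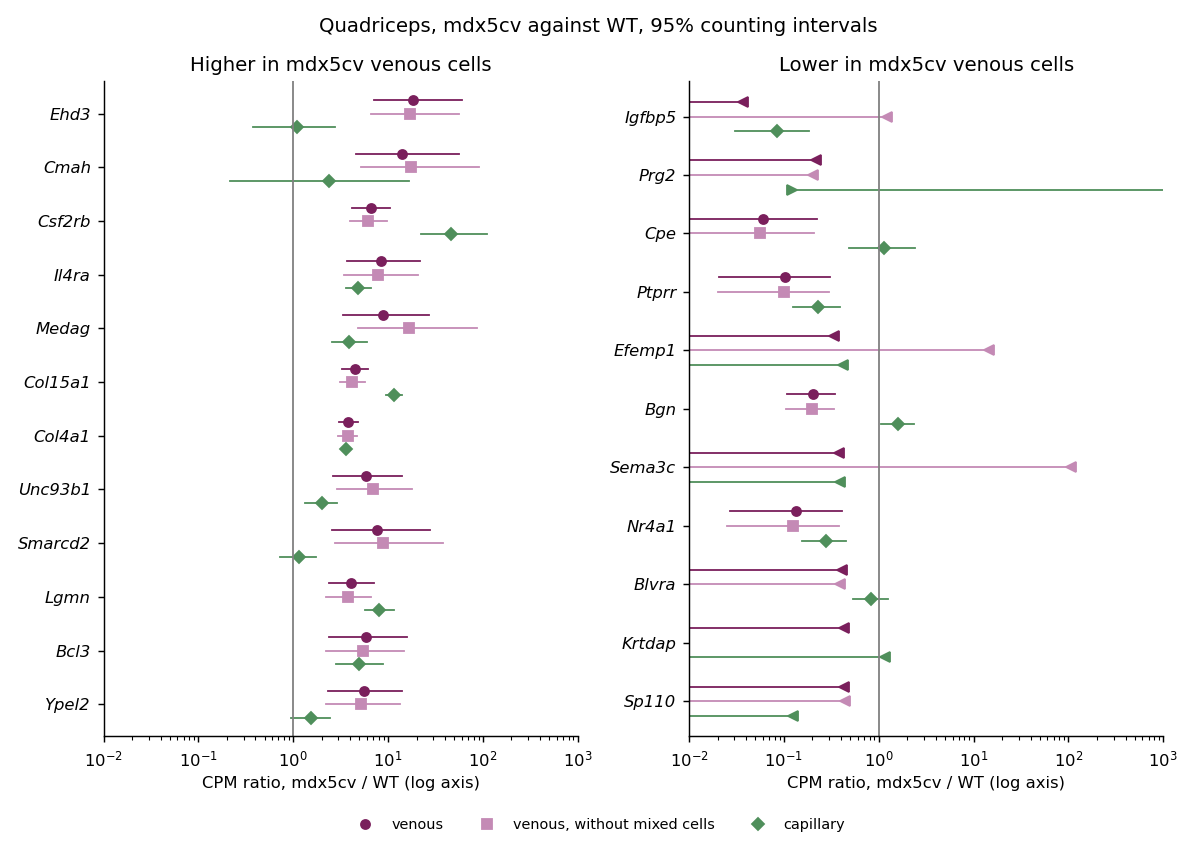
CPM ratio of mdx5cv to WT quadriceps (log axis) with 95% counting intervals for 12 genes higher and 11 lower in venous-gated cells, ranked by interval, shown for all members (circles), members without mixed cells (squares) and capillary-gated cells (diamonds); arrowheads mark the bound where a group was at 0 UMIs. Ehd3 stands at 18.3 in members and 1.11 in capillary-gated cells, Csf2rb at 6.58 and 45.6, and Igfbp5, Efemp1 and Sema3c were not called without mixed cells.

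The gate genes themselves are a description. Selp was at 199 CPM in WT and 420 in mdx5cv quadriceps members and Ackr1 at 283 and 476 CPM, whereas Vwf was level at 1045 and 1079 CPM. Of the venous and venular list, 2 of 12 testable genes were higher and 2 lower in mdx5cv. Lrg1 was 1.80-fold higher (1.41 to 2.29) and Tmem252, a membrane protein gene, 3.38-fold (2.17 to 5.26), while the sialomucin endomucin (Emcn) was 1.76-fold lower (1.44 to 2.17) and the proteoglycan Bgn 4.92-fold lower (2.87 to 9.17). Plvap (1.26, 1.05 to 1.51), Vcam1 (0.776, 0.497 to 1.18), Icam1 (0.836, 0.489 to 1.37) and Nr2f2 (1.40, 0.848 to 2.24) were not called. Among Selp or Ackr1 members Lrg1 was at 734 CPM in WT and 1227 CPM in mdx5cv, and Plvap at 1558 and 2003 CPM. Among Vwf-only members Lrg1 was at 238 and 80.6 CPM, and Plvap at 664 and 26.9 CPM. The Vwf-only set of mdx5cv was 13 cells with 3 Lrg1 UMIs and 1 Plvap UMI. In capillary-gated cells 9 of 11 genes of the same list were called higher in mdx5cv, among them Vcam1 (2.46), Icam1 (2.14), Plvap (2.26) and Lrg1 (5.54). Their levels there stayed far below the members: Vcam1 at 39.8 CPM in mdx5cv capillary-gated cells against 230 CPM in the members, and Plvap at 27.7 against 1420 CPM. Under median-ratio scaling 6 of those 9 were called, and without mixed cells 7 of 10, with Vcam1 and Bgn no longer among them.

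Ranked by the interval bound nearest 1, Ehd3 came first, a relative of Ehd4 in endocytic recycling. It gave 31 UMIs in 11 of 35 mdx5cv quadriceps members (246 CPM), 5 UMIs in 136 WT members (13.5 CPM), 1 UMI in WT diaphragm and 4 UMIs in mdx5cv diaphragm (44.9 CPM), an 18.3-fold difference in quadriceps (7.04 to 60.1). Capillary-gated cells were at 9.36 and 10.4 CPM (1.11, 0.373 to 2.76). The log2 ratio of members exceeded that of capillary-gated cells by 4.04 (2.17 to 5.91). Cmah, which makes the sialic acid Neu5Gc, was 14.0-fold higher (4.65 to 56.5), but 13 of its 19 UMIs came from 1 cell.

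Of cytokine receptor and signalling genes, 5 of 16 testable were higher and 0 lower, and the same 5 under median-ratio scaling and without mixed cells. Their median log2 ratio was 0.61, against -0.18 over all testable genes. Il4ra, the receptor of interleukins 4 and 13, gave 23 UMIs in mdx5cv quadriceps members (182 CPM), 8 in WT (21.5 CPM), 7 in mdx5cv diaphragm (78.6 CPM) and none in WT diaphragm, 8.47-fold in quadriceps (3.66 to 21.9). In capillary-gated cells it was at 32.0 and 156 CPM (4.86-fold). The NF-kappaB cofactor Bcl3 was 5.89-fold higher (2.38 to 15.9), Socs3 2.21-fold (1.29 to 3.74), Stat3 2.19-fold (1.40 to 3.41) and the TNF receptor Tnfrsf1a stood at 317 against 162 CPM (interval of the ratio 1.28 to 2.98). Csf2rb was at 80.8 CPM in WT and 531 CPM in mdx5cv quadriceps members (6.58-fold, 4.22 to 10.5) and was detected in 17 of 136 and 19 of 35 of them. Capillary-gated cells started lower and differed more, from 2.88 to 131 CPM (45.6-fold, 22.0 to 109), and stayed below the members at 131 against 531 CPM.

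Stat3 and Socs3 act in 1 loop, in which phosphorylated STAT3 dimers bind palindromes of the form TTCNNNGAA and Socs3 then damps the receptor. The 250 bases before the start site of the 5 called genes were read from the RefSeq promoter table (GRCm38.p6) and searched for that motif, which is its own reverse complement. It occurred in 2 of the 5, and in 2306 of 32851 upstream sequences of that length (7.02%). Both sequences are shown 5′ to 3′ on the gene's strand because they belong to genes called higher together, with the match in capitals, 244 bases before the start site of Tnfrsf1a (chr6:125349473-125349722, plus strand) and 154 before that of Socs3 (chr11:117969367-117969616, minus strand).
Tnfrsf1a: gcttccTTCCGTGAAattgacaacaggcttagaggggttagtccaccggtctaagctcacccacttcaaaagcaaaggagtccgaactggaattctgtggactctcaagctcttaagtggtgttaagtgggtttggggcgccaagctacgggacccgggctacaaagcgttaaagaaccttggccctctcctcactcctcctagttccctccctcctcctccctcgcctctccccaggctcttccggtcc
Socs3: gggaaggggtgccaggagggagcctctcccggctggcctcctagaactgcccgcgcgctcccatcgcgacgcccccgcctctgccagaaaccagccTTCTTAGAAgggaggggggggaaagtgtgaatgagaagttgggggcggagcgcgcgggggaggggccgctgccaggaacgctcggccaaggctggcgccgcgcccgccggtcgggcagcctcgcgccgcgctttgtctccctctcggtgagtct
A match of letters is a description and no binding was measured.

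Matrix genes gave 9 higher and 4 lower of 21 testable, with a median log2 ratio of 0.42. The higher ones were largely of the basement membrane: Col4a1 (377 to 1443 CPM, 3.83-fold, 3.05 to 4.81), Col4a2 (2.47-fold), the laminin chain Lamb1 (5.15-fold), the multiplexin collagens Col15a1 (189 to 849 CPM, 4.50-fold, 3.30 to 6.17) and Col18a1 (4.42-fold), perlecan (Hspg2, 1.62-fold) and Sparc (1.85-fold), with Fbln2 (2.39-fold) and Igfbp7 (1.80-fold). Hspg2 was not called under median-ratio scaling. Lama4, the laminin chain of endothelial basement membrane, was lower (2.43-fold), as were Timp3 (2.38-fold), Bgn and Fn1, the last of which was not called without mixed cells. Capillary-gated cells had 13 higher and 3 lower of 23, with Col4a1 at 3.57-fold and Col15a1 at 11.5-fold. Both mdx5cv libraries held Col4a1 well above WT in the members, at 1443 and 1370 CPM against 377 and 258 CPM.

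Of 19 testable immediate-early and heat shock genes, 9 were lower and 1 higher, with a median log2 ratio of -0.57. Nr4a1 was 7.47-fold lower (2.45 to 37.2), Dnajb1 2.75-fold, Egr1 2.05-fold, Hspa1a 1.98-fold, Hspb1 1.75-fold, Hsp90aa1 1.65-fold, Jun 1.64-fold, Ier3 1.63-fold and Klf6 1.55-fold. Myc was 4.05-fold higher (1.48 to 11.6), on 11 and 8 UMIs. In capillary-gated cells 14 of 19 were lower. Fos separated the classes: it was level in the members (482 and 531 CPM, 1.10, 0.820 to 1.47) and 2.81-fold lower in mdx5cv capillary-gated cells (243 to 86.5 CPM), a difference in log2 ratio of 1.63 (1.05 to 2.21).

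Other groups held fewer calls. Interferon-response genes had 2 of 14 higher, Ifi44 (2.73-fold) and Usp18 (4.63-fold), against 7 of 20 in capillary-gated cells. Adhesion genes had 1 of 10 higher, Esam (1.54-fold), which was not called without mixed cells or under median-ratio scaling. Coagulation genes were split, with Thbs1 (2.10-fold) and Mmrn2 (1.68-fold) higher and Thbd (1.90-fold, 1.27 to 2.92) and Cd9 (2.37-fold, 1.90 to 2.98) lower. Thbs1 was not called without mixed cells, and under median-ratio scaling 0 were called higher and 3 lower. Lipid genes had 1 higher and 5 lower of 11, among them Fabp4 (1.64-fold), Fabp5 (1.61-fold) and the fatty acid transport regulator Tcf15 (1.83-fold). The shear-responsive factors Klf2 (1.70-fold) and Klf4 (1.78-fold) were lower, while Sox18 was 1.74-fold higher. Ptgs1 was 1.57-fold lower, and the histamine receptor Hrh1 7.36-fold higher (2.12 to 32.2) on 10 UMIs in 6 mdx5cv cells and 4 UMIs in 4 WT cells.

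**Figure D4:**
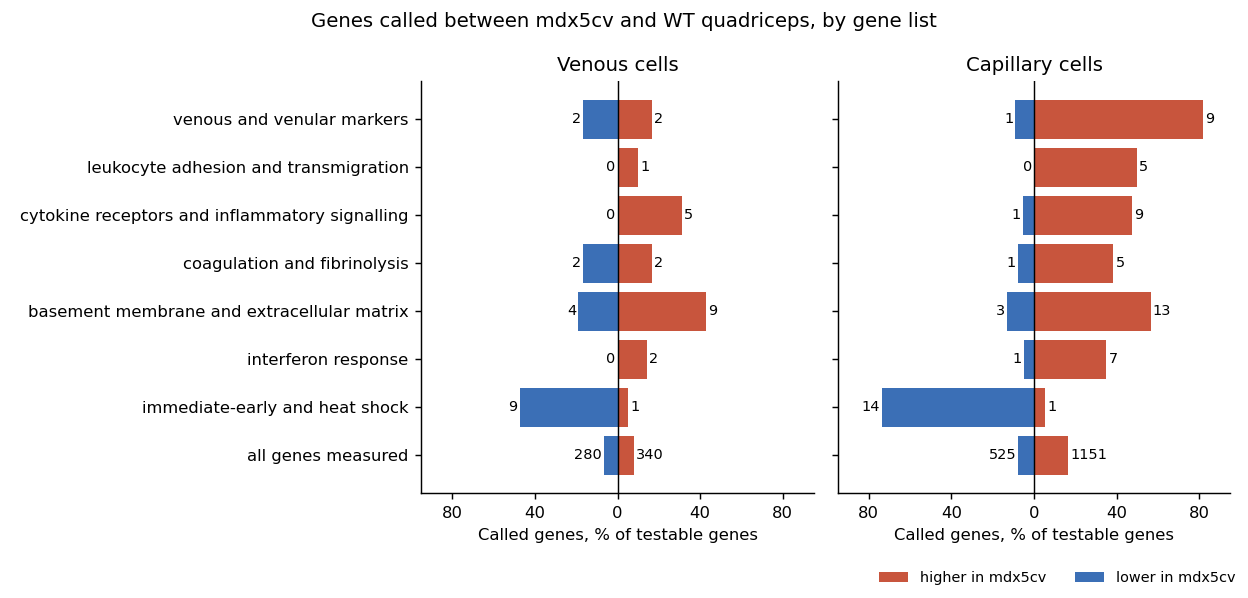
Share of testable genes called higher (right) or lower (left) in mdx5cv quadriceps, in percent, for 7 gene lists and all genes, in venous-gated and capillary-gated cells, with the number called at each bar. Venous and venular markers show 2 higher genes in venous-gated cells and 9 in capillary-gated cells, and immediate-early and heat shock genes show 9 and 14 lower.

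Further genes that ranked high were Medag (8.83-fold, 3.36 to 27.2), the endosomal Toll-like receptor chaperone Unc93b1 (5.89-fold, 2.63 to 14.1), the chromatin remodelling subunit Smarcd2 (7.66-fold, 2.56 to 27.4), the lysosomal protease Lgmn (4.08-fold, 2.39 to 7.03) and Ypel2 (5.56-fold, 2.35 to 14.2). Smarcd2 was not called over Selp or Ackr1 members alone.

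The genes lower in mdx5cv were led by transcripts that few WT cells supplied. Igfbp5 gave 292 UMIs in WT and 0 in mdx5cv quadriceps members, but 146 came from 1 cell and the call was lost without mixed cells, as were those of Efemp1, Sema3c and Krtdap. All 52 Prg2 UMIs came from 1 WT cell. The fibroblast list, with 9 of 10 testable genes lower in mdx5cv, stood at 2750 CPM in WT and 182 CPM in mdx5cv quadriceps members. Without the 4 mixed WT cells 1 of 3 testable genes was lower (Serping1), and the list stood at 256 against 182 CPM. It was at 11994 and 16969 CPM in the UMIs of empty droplets.

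Other lower genes were spread over many cells. Carboxypeptidase E (Cpe), a hormone-processing enzyme, gave 98 UMIs in 29 WT quadriceps members (264 CPM), 3 UMIs in WT diaphragm (111 CPM), 2 UMIs in mdx5cv quadriceps (15.9 CPM) and 10 in mdx5cv diaphragm (112 CPM), 16.6-fold lower in mdx5cv quadriceps (4.49 to 139). Capillary-gated cells held 13.7 and 15.6 CPM, so Cpe stood above the capillary level in WT quadriceps members and at it in mdx5cv quadriceps members, but not in those of mdx5cv diaphragm. The tyrosine phosphatase Ptprr gave 87 UMIs in 47 WT members and 3 UMIs in mdx5cv (9.85-fold lower, 3.26 to 48.7), and was 4.36-fold lower in capillary-gated cells. Bgn had 203 UMIs in 64 WT members (547 CPM) and 14 UMIs in 8 mdx5cv members (111 CPM), and was 5.06-fold lower without mixed cells.

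The biliverdin reductase Blvra gave 28 UMIs in 25 WT members and 0 in mdx5cv quadriceps, 3.17-fold lower when 3 counts are set in place of 0. Capillary-gated cells were at 58.7 and 48.4 CPM. Sp110 (a nuclear body gene) gave 27 UMIs in 22 WT members and was at 0 in the members and capillary-gated cells of both mdx5cv libraries, against 51.8 CPM in WT quadriceps capillary-gated cells.

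Over 3687 genes testable in both classes, the log2 genotype ratio was higher in members than in capillary-gated cells, with an interval above 0, for 162, and lower with an interval below 0 for 170. The strongest on the lower side were Lgals3, Bgn, Col3a1, Mgp, Csf2rb and S100a4, and on the higher side, by interval, Prg4, Tomm34, Smarcd2, Fos, Fbln5 and Pik3c3. Lgals3, a macrophage galectin, was at 51.2 and 39.7 CPM in WT and mdx5cv members and at 3.96 and 74.4 CPM in capillary-gated cells. Its capillary ratio of 18.8 was 1.97 and not called without mixed cells.

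Within mdx5cv, diaphragm members held fewer Plvap, Ehd4, Sox18 and Tagln transcripts than quadriceps members and more of Rgcc, Kdr and Nrp1. Of 2418 testable genes, 104 (4.30%) were called higher and 173 (7.15%) lower in diaphragm, and 89 (3.93%) and 154 (6.79%) of 2267 without mixed cells. The make-up differed too, with 3 of 24 diaphragm members and 22 of 35 quadriceps members having a Selp or Ackr1 UMI. Its part in these ratios was not tested. Among Vwf-only members Plvap was at 204 CPM in diaphragm and 26.9 CPM in quadriceps, and Rgcc at 407 and 349 CPM. Among Selp or Ackr1 members Plvap was at 1529 and 2003 CPM, Rgcc at 0 and 45.0 CPM and Tagln at 49.3 and 810 CPM. Of the venous and venular list 3 of 12 were lower and 0 higher: Plvap (505 against 1420 CPM, 2.81-fold), Slco2a1 (2.72-fold) and Tmem252 (6.64-fold). Lrg1 was not called (719 against 888 CPM, 1.24-fold lower, 0.901 to 1.71).

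Tagln gave 1 UMI in mdx5cv diaphragm members and 72 in 17 of the 35 quadriceps members (50.8-fold lower, 8.84 to 2036). Sox18 was at 89.8 against 619 CPM (6.89-fold lower), Igfbp4 at 11.2 against 222 CPM (19.8-fold), Ehd4 at 202 against 983 CPM (4.87-fold), the LIF receptor Lifr at 101 against 420 CPM (4.16-fold) and Il6st at 404 against 864 CPM (2.14-fold). Cited2 and the ceramidase Acer3 were at 0 against 16 UMIs each, at least 3.77-fold lower.

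Of the capillary list, 3 of 11 were higher in diaphragm members and 2 (Aqp1 and Aplnr) lower. The higher ones were Rgcc (314 against 135 CPM, 2.33-fold, 1.23 to 4.54), Kdr (1.83-fold) and Tcf15 (2.55-fold), with the semaphorin and VEGF co-receptor Nrp1 at 1033 against 436 CPM (2.37-fold, 1.68 to 3.37). Of early-response and heat shock genes 5 of 18 were higher and 1 lower, with Hspa1b at 3773 against 1888 CPM and Hspa1a at 1774 against 944 CPM. Without mixed cells 3 were higher (Hspa1a, Hspa1b and Hsp90aa1) and 3 lower (Fosb, Atf3 and Zfp36). Tyrobp (32 UMIs against 0), Irf8 and the class II genes H2-Aa, H2-Ab1, H2-Eb1 and Cd74 were called higher, but none of these calls remained without the 2 mixed cells, where Cd74 was called lower. Rbp7 was called with 25 UMIs against 2, of which 16 came from 1 cell.

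Markers of other cell types that the gate could admit were uneven over lists and libraries. The fibroblast list summed to 2750, 36589, 182 and 326 CPM in the members, most of it in mixed cells in both WT libraries, and the pericyte and smooth muscle list to 964, 111, 587 and 33.7 CPM. Prox1, by the rule, and Lyve1 were at 0 in the members of every library, as was the platelet gene Ppbp, and Pf4 gave 1 UMI per library. The platelet list, of interest because platelets also hold Selp and Vwf, summed to 8, 1, 5 and 2 UMIs, or 21.5, 36.8, 39.7 and 22.5 CPM. The macrophage list summed to 827, 258, 634 and 1741 CPM, and 7, 13, 4 and 3 of its 15 genes were at 0. If every UMI of 47 marker genes of other cell types is taken as free RNA with the make-up of empty droplets, free RNA comes to 18.3% of the members' UMIs in WT quadriceps, 77.1% in WT diaphragm, 1.34% in mdx5cv quadriceps and 4.20% in mdx5cv diaphragm. Without mixed cells the same estimate was 2.23%, 1.12%, 1.34% and 1.03%.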

How the data were processed

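The deposited files are unfiltered matrices of UMI counts per gene and barcode, made from 10x 3' libraries, per the labels' protocols. The authors aligned to mm10 with Cell Ranger 5.0.0, per the submitters' processing notes, while the file headers name Cell Ranger 4; the counts were used as deposited. Cells, classes and calls were defined as stated above, with Python 3.11.15, numpy 2.4.6, scipy 1.17.1 and pandas 2.3.3. Ratios of summed counts carry exact conditional binomial intervals, and shares carry Clopper-Pearson intervals. Calls used the observed counts; where a class had 0 UMIs, the printed fold was computed against 3 counts. Empty droplets were barcodes with 10 to 100 UMIs. Doublet scores came from Scrublet in scanpy 1.11.5, and no cell was removed on them. The procedure was tested on simulated counts that held counting error only, at the depths of the quadriceps venous-gated cells of both genotypes. Of genes changed 1.5-fold, 25% of increases and 18% of decreases were called. At 2-fold the shares were 71% and 36%, and at 4-fold 100% and 76%. Of unchanged genes 3.33%, 2.97% and 3.01% were called.

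The members and the gene lists were chosen with earlier results of these data known. Genes were named by rank of the interval bound nearest 1: 15 higher and 12 lower against capillary-gated cells, 12 and 12 between genotypes, 6 and 6 between muscles, between Selp or Ackr1 and Vwf-only members and for the difference of genotype ratios, leaving out genes estimated at over 20% free RNA, plus list members called and a fixed set of markers. Genes of the rule, mitochondrial, ribosomal, haemoglobin, predicted and sex-linked marker genes were not ranked. WT diaphragm, with 4 members, entered no ratio. A ranked gene is not reported here.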

Additional observations from a re-analysis of the deposited data

Results flagged for a closer look

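In 7 genes, 1 of them only on observed counts, the venous-gated and capillary-gated cells of quadriceps were called in opposite directions between genotypes. Testable in both classes were 3687 genes. Of all testable genes of a class, 14.3% were called in either direction in members and 24.0% in capillary-gated cells. With 1 library per group the difference was not tested over replicates. Lower in mdx5cv members and higher in mdx5cv capillary-gated cells were the fibrillar collagen Col3a1 (mdx5cv to WT ratio 0.207 in members, 1.80 in capillary-gated cells), the calcium-binding protein S100a4 (0.359 and 2.93), the calcification inhibitor Mgp (0.241 and 2.10), the membrane protein Emp3 (0.524 and 1.61) and the proteoglycan Bgn (0.203 and 1.59). Zyg11b, a ubiquitin ligase adaptor, gave 0 UMIs in mdx5cv and 13 in WT members, a ratio of 0.680 with 3 counts in place of 0, and 1.91 in capillary-gated cells. Its call rests on the observed 0, since 0.680 is a 1.47-fold difference and short of the threshold. H2-M3, a non-classical class I gene, went the other way, at 2.36 in members on 12 and 15 UMIs and 0.637 in capillary-gated cells.

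Without mixed cells the member call of Col3a1 was lost (ratio 1.15), and so was the capillary call of Bgn (1.37). H2-M3 was then not called in either class, but its ratios hardly moved, at 2.36 and 0.634. S100a4, Mgp and Emp3 stayed called in both classes, as did Zyg11b on its observed counts. S100a4 rested on few cells, with 41 UMIs in 6 WT members and 5 UMIs in 2 mdx5cv members.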

How the results depend on the processing

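No paired analysis was possible because each group is 1 library. The share of members among endothelial-gated cells (5.87%, 8.68% and 6.30% in WT quadriceps, mdx5cv quadriceps and mdx5cv diaphragm) depended on the rule. With 3 or more gate UMIs it was 3.37% in WT quadriceps and 2.10% in mdx5cv diaphragm. With 2 or more UMIs of Selp and Ackr1 it was 1.38%, 3.72% and 0.525%, without members holding 3 or more capillary UMIs 3.71%, 5.46% and 3.41%, and in cells thinned to 1000 UMIs 3.19%, 4.05% and 1.47%. In cells with at least 2000 UMIs it was 12.3% in WT and 12.2% in mdx5cv quadriceps.

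Against capillary-gated cells, the 42 higher and 53 lower genes became 26 and 23 with 2 or more UMIs of Selp and Ackr1, 9 and 8 at no more than 5% mitochondrial UMIs, 8 and 7 after thinning, and 26 and 19 at 2-fold. With no minimum beyond 1 UMI, 66 were higher. Leaving out 1 library gave from 51 (without WT quadriceps) to 177 (without mdx5cv diaphragm) higher and from 69 to 163 lower, since fewer libraries must share a call.

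Between genotypes, the 340 higher and 280 lower genes became 187 and 174 with 2 or more UMIs of Selp and Ackr1, 163 and 155 at no more than 5% mitochondrial UMIs, 96 and 91 after thinning, and 203 and 435 under median-ratio scaling. The medians that follow are over list genes of at least 5 CPM in either group compared, with counts under 3 set to 3. Those given earlier are over testable genes, by which interferon genes stood at 0.18 and adhesion genes at -0.28. The median log2 ratio of interferon genes moved from 0.33 to 0.88 without members holding 3 or more capillary UMIs and to 0.74 after thinning. That of early-response and heat shock genes moved from -0.57 to -0.96 after thinning, and that of adhesion genes from -0.21 to -0.41 under median-ratio scaling. Without mixed cells Col3a1 between genotypes and Cd74 between muscles changed direction. Of 108 results on genes ranked against capillary-gated cells or between genotypes, 64 kept their call after thinning and 36 lost it, 72 and 26 did so at no more than 5% mitochondrial UMIs, and the others gave no fold above 3 counts. Under median-ratio scaling 108 kept their call. These genes had been ranked by interval bound in the same data, so this does not describe the other called genes. Thinning and the stricter filters leave fewer UMIs. The causes of the other changes were not tested. With 35 and 24 members in the mdx5cv libraries, genes of few UMIs gave wide intervals, and a missing call does not show equal levels.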
